A study of Mus musculus with 3 samples.

Results

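The AP-1 and immediate early genes are a set of 10 genes: Fos, Fosb, Jun, Junb, Jund, Egr1, Egr2, Ier2, Ier3 and Atf3. They were followed in mouse lung on Affymetrix expression arrays through every probe set whose single gene symbol in the platform table is one of these names. This gave 15 probe sets of 12422, for 10 of the 8251 genes with a probe set of their own. RNA came from the lung of mice carrying subcutaneous B16 tumours (a mouse melanoma line) on the back, from the lung of mice carrying LLC tumours (Lewis lung carcinoma) there, and from normal lung. They are labelled B16-bearing lung, LLC-bearing lung and control lung, and the former pair is called the B16 and LLC lung below. The design models the lung of an animal with a primary tumour elsewhere. Whether these lungs held tumour cells was not tested. There was 1 array per group, so every difference describes these arrays and carries no p-value or error of its own. The labels used here give no strain, age, time after injection or number of animals.

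Immediate early genes are switched on within minutes of a stimulus without new protein synthesis, through kinase cascades that act on transcription factors already bound to their promoters. Products of the Fos and Jun genes pair through leucine zippers to form AP-1, which binds its own DNA motif, while the Egr genes encode zinc finger factors. In lung the set is known to respond to growth factors, cytokines, injury and stretch, and its mRNAs are short-lived. It is also known to be induced by the handling of tissue.

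Signals below are background-subtracted array intensities in arbitrary units after 1 scaling factor per array. Values under a floor of 23.6, the 40th percentile of all values, are called below the floor, and a fold against such a value is a lower bound. A probe set's brightness depends on its sequence, so signals are compared between arrays and not between genes. Of the 15 probe sets, 9 were above the floor on all 3 arrays, 2 on only some of them, and 4 on none. The 4 below the floor were the second set of Fos, the second set of Egr1 and a pair of Atf3 sets. The brightest probe set of a gene stood for it unless another is named.

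The lungs carried their defining markers on every array. All 5 measured genes of lung epithelium and all 5 of lung endothelium were above the floor on each. The ratio of the 3' to the 5' beta-actin control was 1.56, 1.47 and 1.44 in the B16, LLC and control lungs, and that of Gapdh was 1.20, 1.001 and 0.957. Markers of other cell types differed between the arrays. The summed signal of 5 hepatocyte markers was 4311 in the LLC lung against 151 in the B16 and 148.5 in the control lung. That of 5 cardiac markers was 870 and 748 in the B16 and LLC lungs against 1737 in the control lung. That of 4 B lymphocyte markers was 315 and 356 against 705, and that of 4 melanocyte markers 116 and 273 against 109, with Tyrp1 below the floor throughout. The melanocyte markers did not move together. Dct read 196 in the LLC lung and was below the floor on the other arrays. Pmel was lowest there, with 78.6 in the B16, 40.7 in the LLC and 85.9 in the control lung, and Tyr was near the floor. The summed signal of 5 neutrophil markers was 2500 and 3870 against 1014, with Ngp, a neutrophil granule gene, below the floor on every array. Of the others, S100a8, S100a9 and Ltf were highest in the LLC lung. Camp was highest in the B16 lung, with 300, against 225 in the LLC and 171 in the control lung. The summed signal of 5 leukocyte markers was 2317 and 3703 against 3037. Most of each leukocyte sum was Lyz2, which read 2182, 2966 and 2703. The median log2 difference of these 5 genes from control was -0.75 in the B16 and 0.58 in the LLC lung. The part of these tissues and cells in the values of the 10 genes was not tested.

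On the brightest probe sets, 0 of the 10 genes were counted as 2-fold higher and 0 as 2-fold lower in the B16 lung than in the control lung, where 3.23% and 4.73% of all 5968 measured genes were. Egr1 was below the floor in the B16 lung, so its value is a bound of at least 1.53-fold lower, and a 2-fold difference is not excluded. With the floor at the 30th percentile 1 gene, Egr1, was counted as lower. Among the 9 genes above the floor on all 3 arrays, Fos had the largest difference, 1.70-fold higher. At 1.5-fold, Fos alone was higher (9.42% of all genes) and Egr1 alone lower (13.7%). The median log2 difference of the 10 genes was 0.15, with 8 above 0 and 2 below, beside a median of -0.0072 over all measured genes, of which 49.4% were above 0. In bulk RNA, fewer cells of a type and less RNA per cell cannot be told apart.

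In the LLC lung no gene of the set reached 2-fold on these probe sets either. Again 10 were measured, with 0 higher and 0 lower, where 3.95% and 2.98% of 6000 genes were. At 1.5-fold, Egr1 and Egr2 were higher (9.30% of all genes) and none was lower (9.07%). The median was 0.07, with 7 above 0 and 3 below, beside -0.0007 over all genes, of which 49.9% were above 0. Both tumour-bearing lungs were compared with the same control array, so these counts are not independent of each other.

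**Figure D1:**
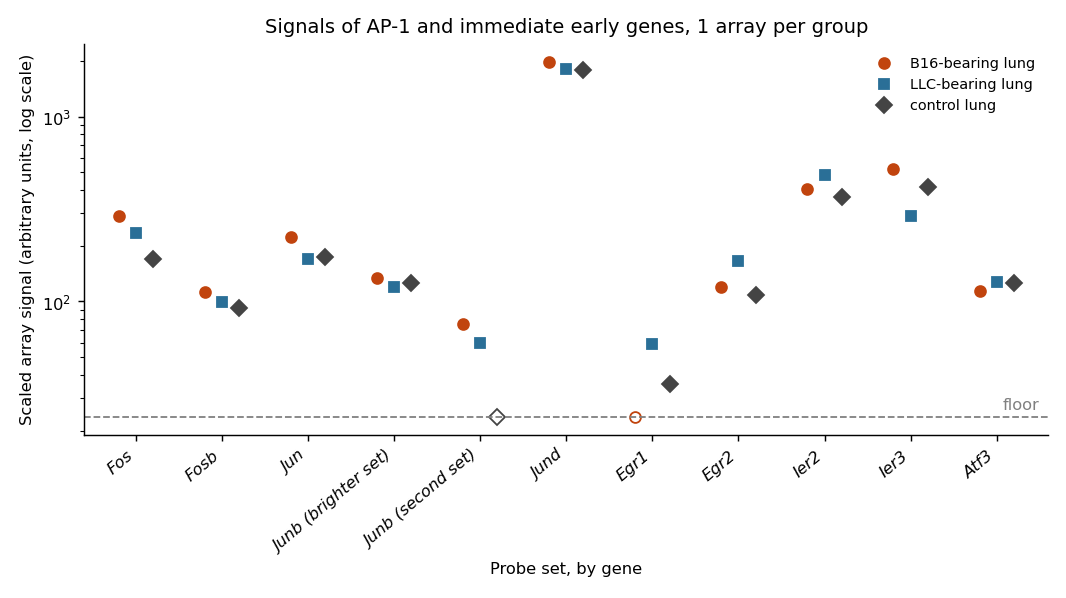
Scaled signal (arbitrary units, log axis) of the 11 probe sets of the 10 genes that were above the floor on at least 1 array, with 1 point per array. Open points on the dashed line were below the floor of 23.6. Fos signals lie in the order 291, 235 and 171 in the B16, LLC and control lungs, while those of Jund, Junb (brighter set) and Atf3 lie close together.

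Fos, whose protein is the partner of Jun proteins in the best-known form of AP-1, had a signal of 291 in the B16 lung, 235 in the LLC lung and 171 in the control lung. Both tumour-bearing lungs were above the control lung, by 1.70-fold and 1.38-fold (log2 differences of 0.77 and 0.46). Of all genes measured against control, 5.68% had a larger log2 difference in the B16 lung and 13.1% in the LLC lung. Among the 1046 genes with a mean signal from 200 to 400, the B16 differences ran from -0.63 at the 5th to 0.68 at the 95th percentile. The Fos value lay above that range. In the LLC lung the same range was -0.52 to 0.61 and held the Fos value. Fos is shown here with the 250 bases before its transcription start because, among the 9 genes above the floor on all 3 arrays, its difference in the B16 lung was the largest on the brightest probe sets. With the mean of both Fos probe sets, the dimmer of which was below the floor, the B16 difference was 0.38, and that of Junb was 0.88. The sequence is RefSeq's, build GRCm38.p6, plus strand, chr12:85473640-85473889. Capitals mark TGACG, the core of the motif bound by CREB and ATF factors, and TATAAA.

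Fos: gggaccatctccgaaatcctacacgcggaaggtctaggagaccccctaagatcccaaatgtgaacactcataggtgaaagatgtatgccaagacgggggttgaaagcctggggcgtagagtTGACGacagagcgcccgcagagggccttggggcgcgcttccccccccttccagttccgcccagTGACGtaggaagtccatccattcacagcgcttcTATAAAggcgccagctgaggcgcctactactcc

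The TGACG matches begin 129 and 66 bases before the start, and TATAAA begins 33 bases before it. Promoters of 8 of the 10 genes were searched on both strands in windows of 250 bases before to 50 after the start. TGACG occurred in 5 of the 8 (Fos, Fosb, Junb, Egr2 and Atf3), beside 23.0% of 27025 genes in the table. The full motif TGACGTCA, which contains TGACG, occurred in 0 of 8 (2.03% of genes), and the AP-1 motif TGANTCA in 0 of 8 (8.97%). The EGR motif GCGTGGGCG occurred in 0 of 8 (0.707%) and its variant GCGGGGGCG in 1, Fosb (3.31%). TATAAA, searched on the coding strand, occurred in Fos and Junb, 2 of 8 (9.77%). In Junb it begins at the annotated start itself, not before it. The CArG box, bound by serum response factor, occurred in 1, Egr2 (1.81%). Sites further upstream than this window, in Fos or the other genes, were not searched, so these counts do not show that a gene lacks a motif. These matches are letters in a window and say nothing of binding in these lungs. The promoters of Egr1 and Ier2 were not used here. For the other 4 genes with TGACG, 30 bases around a match are shown to let the flanks be compared. Fosb is at chr7:19310088-19310117, Junb at chr8:84978837-84978866 and Atf3 at chr1:191183334-191183363, all on the minus strand, and Egr2 at chr10:67537802-67537831 on the plus strand. Capitals mark TGACG or, on the opposite strand, CGTCA.
Fosb: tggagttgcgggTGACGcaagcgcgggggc
Junb: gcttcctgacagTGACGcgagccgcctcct
Atf3: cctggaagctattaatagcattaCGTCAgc
Egr2: tatgggcagcgaCGTCAcgggtattgaaga

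Fosb, the close relative of Fos, had signals of 112, 99.5 and 91.8 in the B16, LLC and control lungs. The order of the arrays was that of Fos, but the differences from control were smaller (log2 0.29 and 0.12).

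Among the Jun genes, which can pair with each other as well as with Fos proteins, the differences were small on the brightest probe sets. Jun had signals of 222 in the B16, 169.5 in the LLC and 173 in the control lung. The B16 array was thus 1.28-fold above control (log2 0.36), while the LLC array lay within 0.03 of it. Jund, the Jun gene known for steady expression, read 1977, 1808 and 1782.5, log2 differences of 0.15 and 0.02 (-0.10 for the latter with quantile normalization).

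Junb, a Jun protein that often restrains Jun, gave different answers on its pair of probe sets. The brighter one read 134, 120 and 126 in the B16, LLC and control lungs, log2 differences of 0.09 and -0.07. The second read 75.4 and 59.98 in the tumour-bearing lungs and was below the floor in the control lung. On it Junb was at least 3.20-fold and at least 2.54-fold higher, past the 2-fold call in both. By their names, the brighter set holds fewer probe pairs than usual and the second was designed under relaxed rules. A higher Junb signal in tumour-bearing lung therefore rests on 1 of 2 probe sets and on a control value below the floor.

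Atf3, a stress-induced factor that pairs with Jun proteins and often represses, read 114 in the B16, 128 in the LLC and 126 in the control lung. Its log2 differences were -0.14 and 0.03. The name of this probe set marks a sequence shared with other family members, so the signal may not be of Atf3 alone. Its other 2 probe sets were below the floor on all arrays.

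The Egr genes were both higher in the LLC lung than on the other arrays. Egr2, known for its part in myelination and in lymphocyte tolerance, read 120 in the B16, 166 in the LLC and 108 in the control lung. This was 1.12-fold and 1.54-fold higher than control (log2 0.16 and 0.62). Among the 1466 genes with a mean signal from 100 to 200, the LLC differences ran from -0.69 at the 5th to 0.69 at the 95th percentile, which held the Egr2 value. Egr2 has 5 starts in the table. A CArG box begins 72 bases before 1 of them, and a different CArG box begins 72, 73 and 133 bases before others. The latter is shown because Egr2 was the only one of the 8 searched genes with a CArG box in the window searched. The stretch shown lies at chr10:67537787-67537816, plus strand, with the box in capitals.
Egr2: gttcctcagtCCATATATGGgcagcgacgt

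Egr1, a growth-factor and injury-induced regulator, was dim. Its brighter probe set was below the floor in the B16 lung and read 59.1 in the LLC and 36.0 in the control lung. The LLC lung was 1.64-fold above control (log2 0.71), and the B16 lung at least 1.53-fold below it. Among genes with a mean signal from 0 to 50, the LLC differences ran from -1.03 to 1.13 (5th to 95th percentile). The B16 differences of that group ran from -1.25 to 1.03. The first of these ranges held the LLC value of Egr1. With the signal raised to the floor, the B16 difference could not fall below -0.61. Its place within the second range was thus fixed by the floor and shows nothing about its size. The B16 value depends on the floor: with a floor at the 30th percentile (9.59), which still lies above the B16 signal, the bound on the log2 difference from control was -1.91, and at the 60th Egr1 was not measured there. The second set of Egr1 lay below the floor on all 3 arrays. Ptprc, the pan-leukocyte antigen CD45, had the same order of arrays, with 24.98 in the B16 lung, 245 in the LLC lung and 137 in the control lung. The B16 value was just above the floor. Of the other leukocyte markers, Lyz2, Cd68 and Ccr2 had this order too. Itgam did not, with 35.4 in the B16, 43.1 in the LLC and 28.8 in the control lung. The part of leukocytes in the Egr1 values was not tested.

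Of the immediate early response genes that are no DNA-binding factors of these families, Ier2 and Ier3 went different ways. Ier2, a small nuclear protein, read 405 in the B16, 485 in the LLC and 365 in the control lung, log2 differences of 0.15 and 0.41. Ier3, which is known to modulate apoptosis and ERK signalling, read 523 in the B16, 291.5 in the LLC and 418 in the control lung. The LLC lung was 1.43-fold lower than control and the B16 lung 1.25-fold higher (log2 -0.52 and 0.32). Among genes with a mean signal over 400, the same percentiles of the LLC differences were -0.36 and 0.45, and the Ier3 value lay below both. Its mean signal of 411 is near the edge of that group, and in the adjacent group, from 200 to 400, the 5th percentile was -0.52, level with the Ier3 value. Of all genes, 11.0% had a lower LLC difference. In the B16 lung that range was -0.52 to 0.59 and held the Ier3 value.

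In the comparison of the B16 with the LLC lung, the control array entered only through scaling and the floor. None of the 10 genes was at least 2-fold higher in the B16 lung (3.41% of 5984 genes) and 1 was at least 2-fold lower (4.93%). The latter was Egr1, at least 2.50-fold lower, with the B16 value below the floor. At 1.5-fold Ier3 alone was higher (9.14% of all genes), by 1.79-fold, and Egr1 alone lower (12.8%). The Ier3 log2 difference of 0.84 lay above the 95th percentile (0.49) of the 738 genes with a mean signal over 400. Of all genes measured, 4.66% had a larger one. Fos and Jun were 1.24-fold and 1.31-fold higher in the B16 lung, and Egr2 and Ier2 were 1.38-fold and 1.20-fold higher in the LLC lung. The median of the set was 0.14, with 6 above 0 and 4 below. Over all genes it was -0.02, with 47.7% above 0.

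**Figure D2:**
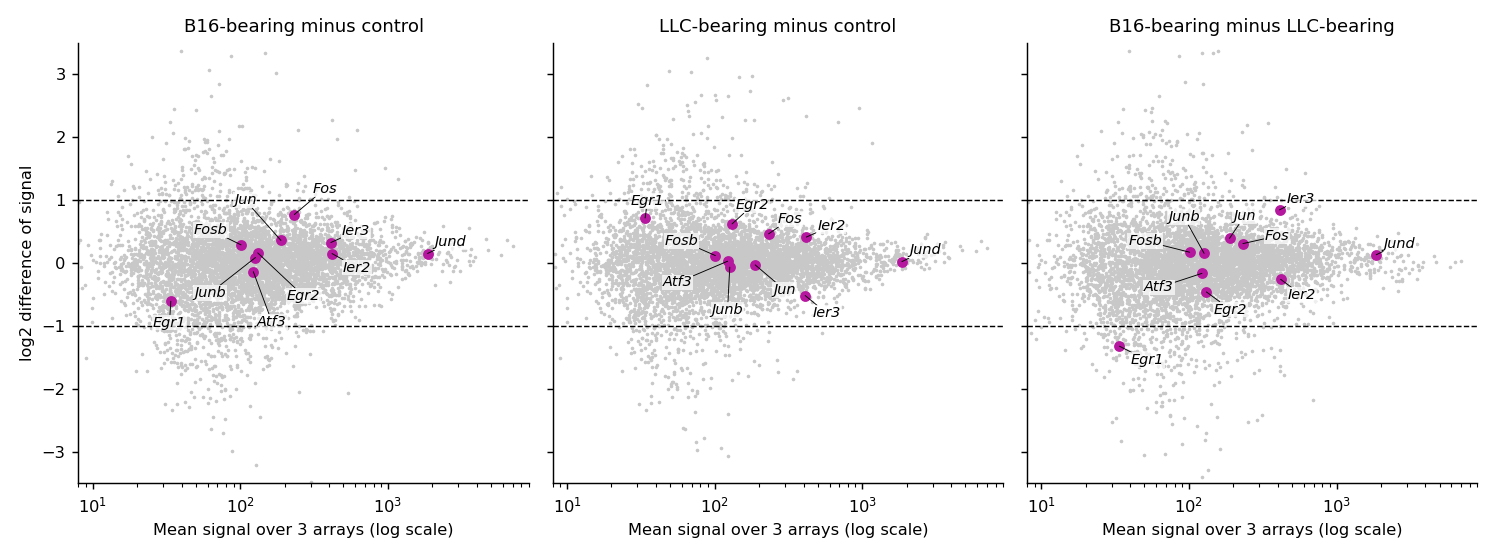
Log2 difference of signal (vertical axis) against mean signal over the 3 arrays (log axis) for all measured genes in grey and the 10 genes in purple, in 3 comparisons. Dashed lines mark a 2-fold difference, and the few genes beyond the axes are not drawn. With Egr1 drawn at its bound where it was below the floor, all 10 genes lie between the lines in both comparisons with control, and Egr1 alone lies outside them between the tumour-bearing lungs.

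Other genes of the pathway were taken from 5 lists, with 91 of 121 listed genes having a probe set of their own. Among kinases and Ras proteins upstream of the immediate early genes, 12 were measured against control in each comparison. Map2k1, a kinase that activates ERK, was the only one past 2-fold, lower in the B16 lung (4.73% of all genes), with signals of 63.8 in the B16, 107 in the LLC and 134 in the control lung (log2 -1.07 and -0.33). The second set of Map2k1 lay below the floor throughout. The medians of the list were 0.08 and 0.13. The brightest members, Nras, Mapkapk2 and Map2k3, had log2 differences from 0.02 to 0.04, from 0.03 to 0.27 and from 0.01 to 0.11.

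Among other FOS and JUN relatives and leucine zipper partners, 0 of 13 genes in the B16 lung were 2-fold different from control. In the LLC lung 0 of 14 were. Over all genes 3.23% were higher and 4.73% lower in the B16 lung, and 3.95% and 2.98% in the LLC lung. Medians of the list were 0.13 and 0.12. Atf4, the main factor of the integrated stress response, read 655 and 606 against 431 (log2 0.60 and 0.49). Cebpd and Cebpb, factors of the acute-phase response, had log2 differences of 0.05 and 0.11, and of -0.0028 and 0.28.

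Among other immediate early transcription factors and the factors that drive them, 1 of 12 was 2-fold higher in the B16 lung (3.23% of all genes) and 0 of 12 in the LLC lung (3.95%). This was Elk4, an Ets factor that acts with serum response factor, with signals of 63.7, 51.2 and 27.4 (log2 1.22 and 0.90). The control value was just above the floor. Medians were 0.03 and 0.13. Klf2, a factor of quiescent endothelium, read 232 and 238 against 315 (-0.44 and -0.40). Klf4 and Klf6 had log2 differences of 0.07 and 0.31, and of -0.02 and -0.17.

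Of 25 feedback regulators and other early response genes, 0 were 2-fold different in the B16 lung (3.23% of all genes higher, 4.73% lower). Medians were 0.09 and 0.12 in the B16 and LLC lungs. In the LLC lung 1 gene of the list was 2-fold higher (3.95% of all genes). This was Socs3, an inhibitor of cytokine receptor signalling, with signals of 62.5 in the B16, 148 in the LLC and 58.8 in the control lung (log2 0.09 and 1.33). Its second probe set read 66.7, 103.2 and 68.0, with the same array highest but short of 2-fold. The 2-fold count of Socs3 thus rests on its brighter probe set. Dusp1, a phosphatase that switches off the kinases of this pathway and is an immediate early gene itself, read 1216, 1307 and 1183 (0.04 and 0.14). Rhob and Plk3 also lay within 0.16 of control in both lungs.

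Of known AP-1 or EGR target genes, 18 were measured. In the B16 lung 3 were at least 2-fold higher than control (3.23% of all genes) and 0 lower (4.73%). In the LLC lung 2 were higher (3.95%) and 0 lower (2.98%). Both medians were 0.19. Mt1 and Mt2, metallothioneins that bind zinc and also respond to metals and glucocorticoids, read 508 and 1152 in the B16 lung. In the LLC lung they read 111 and 429, and in the control lung 118 and 266. Both were thus highest in the B16 lung (log2 2.11 for each against control). Mmp3, a matrix metalloproteinase, read 88.6 in the B16 lung against 42.5 and 38.0 in the LLC and control lung.

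Il1b, which encodes interleukin 1 beta, read 182.5 in the LLC lung against 48.9 in the B16 and 40.6 in the control lung (log2 2.17 for LLC against control). Mmp9, a metalloproteinase abundant in neutrophils, read 150.4 in the LLC, 77.6 in the B16 and 54.0 in the control lung, and its other set lay below the floor. The LLC array was also the highest of the 3 in the neutrophil and leukocyte marker sums given above, though not in Camp. The part of these cells in the values was not tested. Hmox1 and Ccn2, known to respond to oxidative stress and to growth signals, lay within 0.23 of control in both lungs.

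In the B16 lung set against the LLC lung, 0 of 11 kinases, 0 of 14 leucine zipper partners and 0 of 12 other immediate early factors were 2-fold different, with medians of -0.07, 0.01 and -0.04. Over all genes 3.41% were higher and 4.93% lower. Of 24 feedback regulators 1, Socs3, was lower (log2 -1.24), on its brighter probe set only. Of 17 target genes 3 were higher (Mt1, Mt2 and Mmp3, with 2.20, 1.42 and 1.06) and 1, Il1b, was lower (-1.90).

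**Figure D3:**
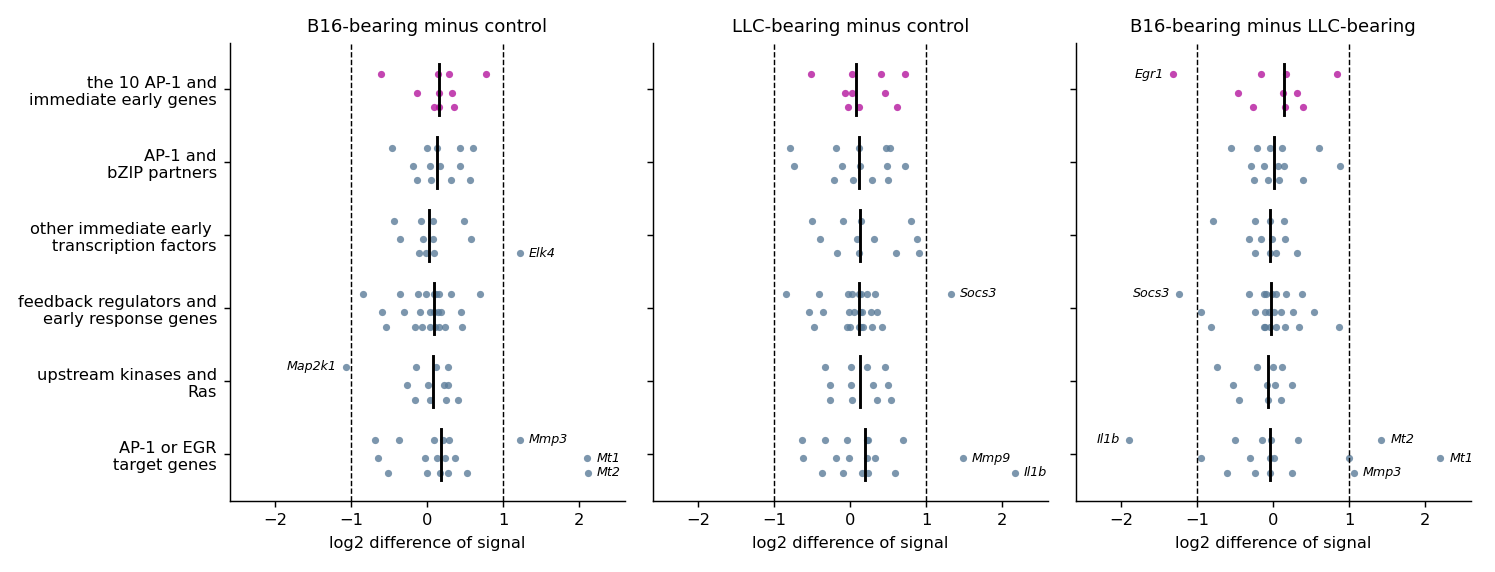
Log2 difference of signal (horizontal axis) of each measured gene of the set and of 5 lists of pathway genes, in 3 comparisons. Points are genes, black bars are list medians, dashed lines mark 2-fold, and genes past them are named. The medians of all lists lie between -0.07 and 0.19, and most named genes belong to the list of AP-1 or EGR targets.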

How the data were processed

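Total RNA from frozen lung was labelled with biotin and hybridised to Affymetrix arrays, per the labels' protocols. The values as the authors deposited them are linear intensity; negative ones show background subtraction, and trimmed means of 100.1 in every column point to scaling by 1 factor per array. Software and genome build: not given in the sources used here. Genes were named from the platform annotation, and 10 of 10 members matched RefSeq by gene ID.

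From these values, 1 factor per array (0.987, 1.01 and 1) set the median log2 ratio to control to 0 over probe sets brighter than the median. Values under the 40th percentile were raised to it before log2. A gene was measured if 1 of the 2 arrays was above this floor. Steps were tested on simulated data with Python 3.11.15 and pandas 2.3.3. Arrays carry no depth; their number limits precision. The named genes are all 10 members and, of 5 pathway lists, genes past 2-fold in any comparison and the 3 brightest per list. Members and lists were chosen with earlier results of these data known. Alternatives varied scaling, floor, probe set choice and fold.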

Additional observations from a re-analysis of the deposited data

Results flagged for a closer look

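Some of the 10 genes lay on opposite sides of the control lung in the B16 and the LLC lung, which share that control array. With 1 array per group these differences were not tested. Ier3 was higher in the B16 and lower in the LLC lung, with log2 differences from control of 0.32 and -0.52, which are 0.84 apart. Egr1 was lower in the B16 lung (-0.61, a bound set by the floor) and higher in the LLC lung (0.71), a difference of -1.32. Jun (0.36 and -0.03) was 0.39 apart, Junb on its brighter probe set (0.09 and -0.07) 0.15, and Atf3 (-0.14 and 0.03) -0.17. In these last 3 genes one lung lay within 0.07 of control. With quantile normalization Jund (0.03 and -0.10) also lay on opposite sides.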

How the results depend on the processing

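Factors from all probe sets above the floor, values as deposited and quantile normalization kept all counts of 2-fold genes, and medians moved by less than 0.1. A floor at the 20th percentile was not run, because that percentile is -0.51 and has no log. A floor at the 30th percentile, chosen after seeing the data, gave 1 gene 2-fold lower in the B16 lung against control, Egr1 (-1.91, again a bound). The count of 1 gene lower in the B16 than in the LLC lung, also Egr1, was 0 with a floor at the 60th percentile or at 100, with the mean of all probe sets of a gene, and with its second probe set. Egr1 was not measured with either of these floors or with the second probe set, so those counts show no smaller difference. The mean gave -0.66 for Egr1, against the bound of -1.32. Its second set, below the floor on all arrays, enters that mean with a difference of 0. With the mean, the LLC median was 0.17. With the second probe set, 7 genes were measured against control, because the second sets of Fos, Egr1 and Atf3 were below the floor. Of these, 1 gene, Junb, was at least 2-fold higher in each tumour-bearing lung than in control. The share of all genes past 2-fold was computed only with the main settings. The B16 median of the 7 was 0.29, over fewer genes than the main median. With a fold of 1.5 against control, the B16 lung had 1 gene higher and 1 lower, and the LLC lung 2 higher. Against the LLC lung, 1 was higher in the B16 lung. Of 224 recomputed member values 7 moved by more than 0.42, the robust SD of all genes between the tumour-bearing lungs. These 7 were values of Egr1 and Junb. Many of the 224 could not move. The 6 genes with 1 probe set keep their value with the mean and with the second probe set. A changed floor leaves signals above it as they were. Values that were no longer measured are not among the 224. The count of 7 is therefore no measure of robustness. The LLC difference of Jund from control was -0.10 with quantile normalization, against 0.02. No paired analysis was possible because each group has 1 array.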

Other observations

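Some early response genes outside the naming rule, chosen after their values were seen, differed more between the tumour-bearing lungs than either differed from control. Btg1, an antiproliferative gene, read 222 in the B16, 430 in the LLC and 323 in the control lung, a log2 difference between the tumour-bearing lungs of -0.95. Zfp36l2, an RNA-binding protein that promotes mRNA decay, read 220, 387 and 333 in the same order (-0.82), while another of its probe sets read 45.0 in the B16 lung and was below the floor in both others, the opposite direction. Gadd45b, a stress sensor, went the other way with 182, 100.1 and 133 (0.86), and its second probe set read 163, 47.5 and 87.3. Ccn1, a matrix protein induced by serum, read 99.2, 49.9 and 77.0 (0.99). On the brightest probe sets none of these reached 2-fold.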
